A study of Mus musculus with 12 samples.

Results

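Myosin heavy chains are the motor subunits of the myosin that drives contraction in muscle and tension in the cell cortex. The 8 genes described here, Myh6, Myh7, Myh7b, Myh3, Myh9, Myh10, Myh11 and Myh14, were taken by symbol from a table of 20368 genes, and all 8 were found. Their levels were followed across RNA-seq libraries of whole embryonic mouse hearts of strain CD1, at embryonic day (E) 11.5 and E12.5, with 3 libraries in each of 4 groups. Mutants carried the genotype Mesp1Cre;Hira-/fl and controls the genotype Mesp1Cre;Hira+/fl, so that both carried Mesp1Cre and a floxed allele of Hira. Hira encodes a chaperone that deposits the histone variant H3.3. After recombination the mutants keep no functional Hira allele in the Mesp1 lineage, and the controls keep a wild-type allele. Mesp1Cre is active in early cardiogenic mesoderm, so heart cells of another origin, such as neural crest, are not expected to recombine in either group. Such cells carry the null allele beside the floxed one in mutants, and a wild-type allele beside it in controls. The comparisons asked how the loss of Hira in this lineage changed expression at stages before the main heart phenotype of the mutants.

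Class II myosins are hexamers of a pair of heavy chains and 2 pairs of light chains. Myh6 (alpha) and Myh7 (beta) are the heavy chains of the cardiac sarcomere. In mice Myh7 dominates in the fetal ventricle and Myh6 in the atria and, after birth, in the ventricle. Myh7b is an ancestral cardiac and slow muscle heavy chain, and Myh3 is the embryonic heavy chain of skeletal muscle. Myh11 is the smooth muscle heavy chain, and Myh9, Myh10 and Myh14 encode the non-muscle heavy chains IIA, IIB and IIC.

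The genes lay on 6 chromosomes of mm10 (GENCODE vM21). Myh6 (chr14:54941921-54966927, minus strand) and Myh7 (chr14:54970684-54994626, minus strand) were neighbours with 3756 bases between them. Myh7b was at chr2:155611212-155634307 on the plus strand, Myh3 at chr11:67078300-67102291 and Myh10 at chr11:68691559-68816632, both on the plus strand. Myh9 (chr15:77760587-77842175), Myh11 (chr16:14194535-14291372) and Myh14 (chr7:44605803-44670843) were on the minus strand. Myh11 shared its chromosome with Hira, at a distance of 4585664 bases. The coding sequences of Myh6 and Myh7 were identical at 91.7% of aligned bases, and 23.8% of the 50-base stretches of Myh6 occurred unchanged in Myh7. For 75-base stretches the share was 16.4%. Reads from these stretches cannot be given to Myh6 or Myh7 by sequence alone, and how the counting treated them was not given in the sources used here, so the split between these genes is uncertain to that extent. Among the other pairs of members, identity was 60.4% to 77.2%, and at most 1.25% of 50-base stretches were shared (Myh9 with Myh10). Up to 1128 of 6135 exon bases of Myh7, summed by gene, overlapped 3 genes on the opposite strand. Among them was the long noncoding RNA Mhrt. The use of strand was not stated, so reads of these genes could not be told apart from those of Myh7 there.

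Introns of the 3 cardiac heavy chain genes host a microRNA family that is transcribed with them, the myomiRs. The mature sequences (RefSeq, GRCm38.p6) are shown because they tie each heavy chain to a regulator made from the same transcript. The libraries do not measure them. Capitals mark the seed, bases 2 to 8.
miR-208a-3p (intron 29 of Myh6, chr14:54949072-54949093, minus strand): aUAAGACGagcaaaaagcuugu
miR-208b-3p (intron 31 of Myh7, chr14:54975710-54975731, minus strand): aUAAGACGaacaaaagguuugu
miR-499-5p (intron 19 of Myh7b, chr2:155622893-155622913, plus strand): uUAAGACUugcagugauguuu
The seeds of the Myh6 and Myh7 microRNAs were the same, and the seed of the Myh7b microRNA differed from them at its last base.

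Promoter windows, from 250 bases before to 50 bases after the RefSeq start, were found for 7 of the 8 genes, all but Myh11, with 2 starts for Myh7, of which the upstream one is shown. Those of the cardiac genes are printed, since these genes are compared across stages below. The motifs searched were 4 short runs, looked for on both strands and shown in capitals. TATAAA, the TATA box core, occurred in 14.2% of all 27025 promoter windows of this length. CATTCC is the core bound by TEAD factors and occurred in 14.6% of windows. For AGATAA, a core of the kind bound by factors of the Gata family, the share was 11.4%. For GAGAGA it was 24.0%. None of the matches printed here overlapped another.
Myh7b (chr2:155610993-155611292, plus strand): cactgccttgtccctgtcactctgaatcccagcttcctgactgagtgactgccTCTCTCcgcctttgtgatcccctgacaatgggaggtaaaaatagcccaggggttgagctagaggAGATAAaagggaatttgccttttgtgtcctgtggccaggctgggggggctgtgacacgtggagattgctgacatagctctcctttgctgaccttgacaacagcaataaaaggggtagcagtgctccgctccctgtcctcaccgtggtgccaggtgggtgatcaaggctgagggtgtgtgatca
Myh6 (chr14:54966558-54966857, minus strand): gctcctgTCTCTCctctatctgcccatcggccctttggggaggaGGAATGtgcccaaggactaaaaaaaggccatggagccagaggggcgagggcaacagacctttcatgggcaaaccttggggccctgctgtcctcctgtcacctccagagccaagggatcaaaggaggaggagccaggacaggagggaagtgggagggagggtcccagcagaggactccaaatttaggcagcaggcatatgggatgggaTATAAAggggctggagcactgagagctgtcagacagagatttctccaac
Myh7 (chr14:54994577-54994876, minus strand): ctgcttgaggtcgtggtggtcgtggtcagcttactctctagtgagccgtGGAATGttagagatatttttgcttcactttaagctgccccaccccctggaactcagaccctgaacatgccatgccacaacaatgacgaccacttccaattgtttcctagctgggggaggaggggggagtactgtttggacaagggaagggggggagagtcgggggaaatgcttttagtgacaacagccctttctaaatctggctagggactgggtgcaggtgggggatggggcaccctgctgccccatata
The Myh7b window held AGATAA at position -133 from the start and GAGAGA, on the opposite strand, at -197. The Myh6 and Myh7 windows both held CATTCC on the opposite strand, at -206 and -201. The Myh6 window also held TATAAA just inside the annotated start and, on the opposite strand, GAGAGA at -243. TATAAA was also found in the window of Myh3, at -29, and on the opposite strand in that of Myh9. CATTCC was also in the window of Myh10, at -7, and GAGAGA, on the opposite strand, in that of Myh3. The downstream Myh7 window held none of the 4 motifs. These are matches of letters and not measured binding sites.

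Read counts were recovered from the deposited values, which are whole counts scaled by gene and by library, and came to 11994148 to 17483982 counted reads a library. All 8 cardiomyocyte markers were present in every group, with a summed level of 11830 to 15470 CPM (read count scaled by library size) in single libraries. Levels of Y-linked genes assigned the 3 E11.5 control libraries as male, while every other group held both sexes. The 6 erythroid markers counted summed to 3812 to 6153 CPM in E12.5 controls and 2066 to 2604 CPM in E12.5 mutants. Erythroid markers were not the only list to differ. Epicardial markers summed to 482.5 to 742.5 CPM in E11.5 controls and 306.3 to 413.9 CPM in E11.5 mutants, and overlapped at E12.5. Macrophage markers were at 17.6 to 42.1 CPM in E11.5 controls and 5.25 to 10.4 CPM in E11.5 mutants. At E12.5 they were at 35.5 to 48.1 CPM and 18.8 to 30.65 CPM. The part of these lists in the results below was not tested. Hira itself was at 68.6 to 86.2 CPM in E11.5 controls and 57.0 to 73.7 CPM in E11.5 mutants, and at 60.7 to 86.5 CPM and 70.4 to 79.7 CPM at E12.5. These ranges overlapped. Reads were counted over the whole gene, and the level is therefore no check of the loss of the floxed part. Nothing in the labels says whether a library held 1 heart or several, so the p-values measure the spread between these libraries only. In whole hearts, fewer cells of a type and less RNA per cell cannot be told apart.

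Between genes, levels are given as RPKM, the read count scaled by transcript length and library size. Myh7 was the highest of the 8 in each of the 12 libraries and ranked 69 among 17827 genes with reads. Its level was 775.9 ± 58.1 RPKM (SD, n = 3) in E11.5 controls and 1069 ± 183 RPKM in E12.5 controls. Myh6 followed with 235.8 ± 90.0 RPKM and 357.1 ± 65.2 RPKM in the same groups. Myh10 came next at 93.4 ± 10.5 RPKM and 114.4 ± 13.2 RPKM, then Myh9 at 42.8 ± 6.36 RPKM and 48.2 ± 4.37 RPKM, and then Myh7b at 17.2 ± 2.91 RPKM and 32.2 ± 6.15 RPKM. In all 4 groups these 5 genes kept this order, and the library ranges of neighbours did not overlap. Myh6 and Myh7 together made up 86.7 ± 0.798% of the RPKM of the 8 genes in E11.5 controls and 88.0 ± 0.586% in E12.5 controls, and they took 0.605 ± 0.0905% and 0.875 ± 0.0712% of all counted reads.

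The remaining genes were near the limit of detection. Myh11, Myh14 and Myh3 averaged 0.288, 0.297 and 0.226 RPKM over the 12 libraries, and ranked from 12842 to 13127. Their order was not fixed, since Myh11 overlapped with Myh14 in 3 of the 4 groups. They fell under the minimum of 0.5 RPKM, averaged over the libraries of a comparison, that was set for the tests across all genes. The limit for a count of 0 in single libraries, 3 reads, was 0.0255 to 0.0431 RPKM for these genes.

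**Figure D1:**
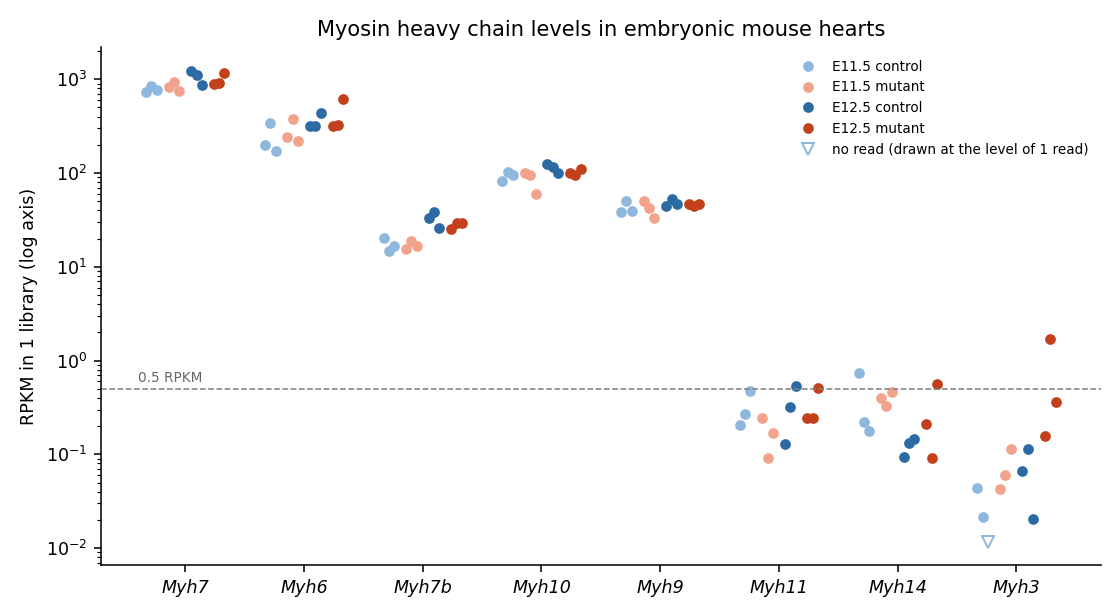
RPKM (log axis) of the 8 heavy chain genes in each of the 12 libraries, one point a library, coloured by group; the open triangle is the library with no Myh3 read, drawn at the level of 1 read. Myh7 lies at 727.8 RPKM or above in every library, and Myh11, Myh14 and Myh3 lie mostly under the dashed line at 0.5 RPKM.

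None of the 5 heavy chain genes tested was called different between mutants and controls. A gene was called at an adjusted p of at most 0.05 (edgeR quasi-likelihood test, Benjamini-Hochberg over all genes tested) and a fold change of at least 1.5. At E11.5 this called 0.115% of all genes tested, at E12.5 3.03% and over both stages 3.19%, and no member in any of them. None of the 5 had an unadjusted p under 0.05 in these comparisons, and DESeq2 and limma also called none.

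Myh7, the main heavy chain of these hearts, was at 893.1, 905.4 and 1176 RPKM in the E12.5 mutants and at 867.9, 1113 and 1226 RPKM in the E12.5 controls. The groups overlapped across nearly their whole range. The fitted log2 fold change was -0.09 (SE 0.132, 95% interval -0.384 to 0.195, edgeR adjusted p = 0.727), an interval that excludes a 1.5-fold change in either direction. At E11.5 mutants were at 753.7, 826.3 and 937.9 RPKM and controls at 727.8, 759.5 and 840.5 RPKM, again overlapping, with a log2 fold change of 0.11 (SE 0.139, edgeR adjusted p = 0.892).

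Myh6 varied more between libraries of a group than Myh7 did. In E12.5 mutants it was at 315.5, 322.7 and 618.0 RPKM, against 318.7, 320.3 and 432.4 RPKM in E12.5 controls. The highest mutant library stood apart from the other 2, which lay at the level of the lower controls. The log2 fold change was 0.24 (SE 0.223, interval -0.248 to 0.733, edgeR adjusted p = 0.574), and it was -0.15 without E12.5 mutant 3. In E11.5 mutants Myh6 was at 219.0, 243.1 and 374.3 RPKM and in E11.5 controls at 171.8, 196.8 and 338.7 RPKM, with a log2 fold change of 0.24 (SE 0.285, interval -0.403 to 0.887). Both intervals reach past 1.5-fold, so that a change of that size is not excluded. The E11.5 value became -0.11 with sex as a covariate. With the replicate number as a block it was 0.27 (SE 0.11, interval 0.0154 to 0.517, edgeR adjusted p = 0.355), which was not called.

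The genotype ranges of Myh7b also overlapped at both stages. The log2 fold change was -0.02 (SE 0.15, edgeR adjusted p = 0.988) at E11.5 and -0.20 (SE 0.124, interval -0.469 to 0.0759, edgeR adjusted p = 0.4) at E12.5. The E12.5 value was -0.06 without E12.5 control 2 and -0.33 without E12.5 control 3 (adjusted p = 0.834 and 0.0801).

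The non-muscle heavy chains overlapped between genotypes too. Myh9, the IIA chain of most non-muscle cells, was at 44.4, 47.0 and 47.2 RPKM in E12.5 mutants and at 44.8, 46.7 and 53.2 RPKM in controls, with a log2 fold change of -0.05 (SE 0.0797, interval -0.223 to 0.127). Myh10, the IIB chain that is abundant in embryonic heart, was at 95.1, 98.9 and 110.3 RPKM in E12.5 mutants and 100, 117.2 and 126.0 RPKM in controls. Mutants were the higher in 1 of 9 pairs of libraries, and the log2 fold change was -0.16 (SE 0.0938, interval -0.366 to 0.0461, edgeR adjusted p = 0.361). Both intervals exclude a 1.5-fold change. At E11.5 the Myh10 value rested in part on E11.5 mutant 3, the shallowest library, which was at 60.2 RPKM where the other mutants were at 94.3 and 99.4 RPKM. The log2 fold change of -0.14 (SE 0.197, edgeR adjusted p = 0.903) became 0.05 without it. With sex as a covariate it was -0.63 (SE 0.17, adjusted p = 0.126), and that of Myh9 went from -0.02 to -0.36 (adjusted p = 0.34). E11.5 mutant 3 was the only E11.5 mutant library assigned as male, and as all E11.5 controls were too, the sex-adjusted genotype values at E11.5 rest on that library.

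The genotype effect at E12.5 was then set against that at E11.5 in an interaction test. It called 0.0% of genes and no member. Among the 5 members the difference of log2 fold changes was largest for Myh7, at -0.22 (SE 0.21, interval -0.674 to 0.231, edgeR adjusted p = 0.954). None of the 5 had an unadjusted p under 0.05, and 552 of all 12270 genes had one. DESeq2 and limma called no member either.

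**Figure D2:**
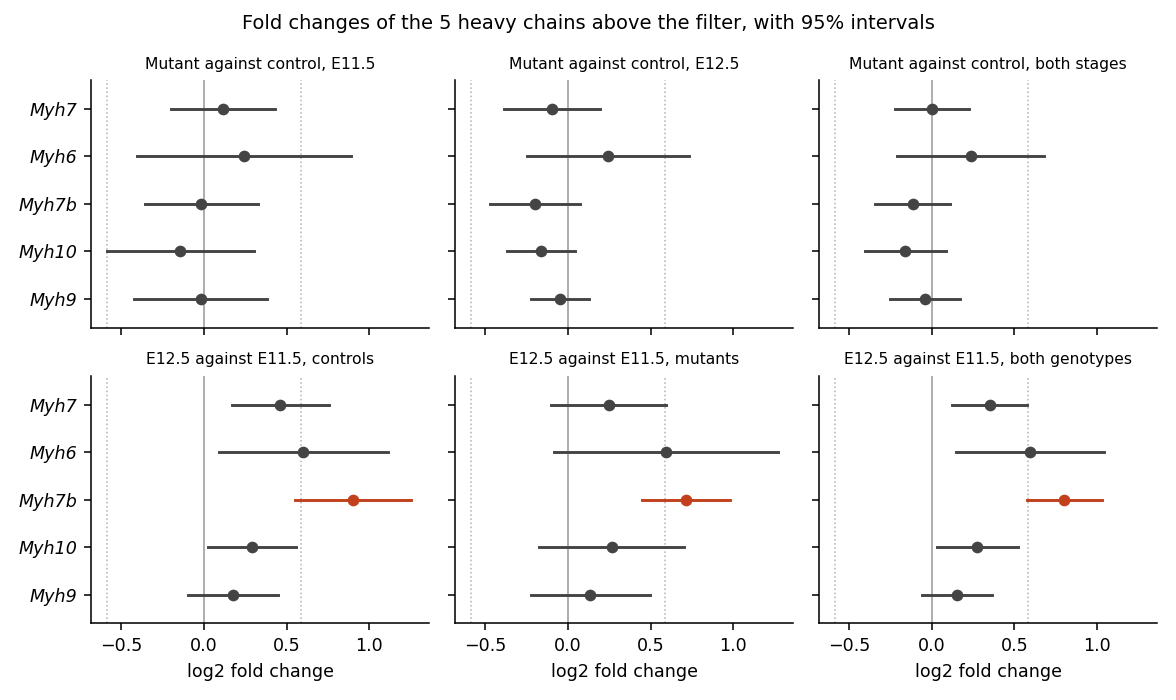
Log2 fold change (points) and 95% interval (lines) of the 5 heavy chain genes above the filter in 6 comparisons, with dotted lines at a 1.5-fold change; red marks calls. Each mutant-against-control interval spans 0, and Myh7b is the gene called with stage, at log2 fold changes of 0.71 to 0.90.

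With developmental stage, Myh7b rose in both genotypes. It was at 14.8, 16.5 and 20.4 RPKM in E11.5 controls and at 25.7, 32.8 and 37.98 RPKM in E12.5 controls. The mutant libraries ran 15.6, 16.6 and 18.9 RPKM at E11.5 and then 25.1, 29.0 and 29.3 RPKM at E12.5. Each of the 6 E12.5 libraries was above each of the 6 E11.5 libraries. Within a genotype, the stages did not overlap for 37.4% of genes tested in controls and 17.4% in mutants. The share over both genotypes was not counted. The log2 fold change was 0.90 in controls (SE 0.157, edgeR adjusted p = 0.015), where 5.31% of genes were called, and 0.71 in mutants (SE 0.117, edgeR adjusted p = 0.0454), where 0.523% were. In a fit of all 12 libraries with genotype as a term, added after the data were seen, it was 0.80 (SE 0.106, interval 0.574 to 1.03, edgeR adjusted p = 0.000957), and 3.74% of genes were called. An exact two-sided permutation of stage within genotype gave p = 0.005, the smallest that it allows. Libraries that do not overlap by stage in either genotype always give this value.

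The 12-library call held without any 1 library (adjusted p 0.000742 to 0.00366) and with sex as a covariate (log2 fold change 0.71, adjusted p = 0.00184). Within a genotype it was less firm. In controls it was lost with sex as a covariate (0.58, adjusted p = 0.408), and without E11.5 control 3 (adjusted p = 0.0515), E12.5 control 1 (0.0735) or E12.5 control 2 (0.0683). In mutants it was lost at a minimum of 5 RPKM (adjusted p = 0.0641) and with the replicate number as a block (0.104). It was also lost without E11.5 mutant 1 (0.137) or 2 (0.059) or without E12.5 mutant 1 (0.131), 2 (0.265) or 3 (0.209). The log2 fold change in these mutant fits was 0.65 to 0.78.

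Myh7 and Myh6 were also higher on average at E12.5 but did not meet both thresholds. The Myh7 libraries of controls did not overlap between stages, which was true of 37.4% of genes tested in controls. The log2 fold change of Myh7 in controls was 0.46 (SE 0.132, edgeR adjusted p = 0.0487), under 1.5-fold, and without E12.5 control 3 it was 0.59 and called (adjusted p = 0.0263). With sex as a covariate it was 0.17 (SE 0.154, adjusted p = 0.728), a value that rests on E12.5 control 3, the only E12.5 control assigned as male. In mutants it was 0.25 (SE 0.152, adjusted p = 0.685) with overlapping libraries. In mutants 17.4% of genes tested did not overlap between stages. For Myh6 the log2 fold change was 0.60 in controls (SE 0.229, edgeR adjusted p = 0.102) and 0.59 in mutants (SE 0.296, adjusted p = 0.608). Without E11.5 control 2, the E11.5 control with the most Myh6, it was 0.95 in controls and called (adjusted p = 0.00252). Over both genotypes the Myh7 value was 0.35 (SE 0.105, adjusted p = 0.0433), under 1.5-fold, and that of Myh6 0.59 (SE 0.208, adjusted p = 0.0706). Myh10 had a log2 fold change of 0.28 with stage over both genotypes (SE 0.114, adjusted p = 0.112) and Myh9 of 0.15 (SE 0.098, adjusted p = 0.29). The 5 tested members had a median stage log2 fold change of 0.46 in controls, 0.27 in mutants and 0.35 over both genotypes, where the medians of all genes tested were 0.0096, 0.0035 and 0.0019.

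**Figure D3:**
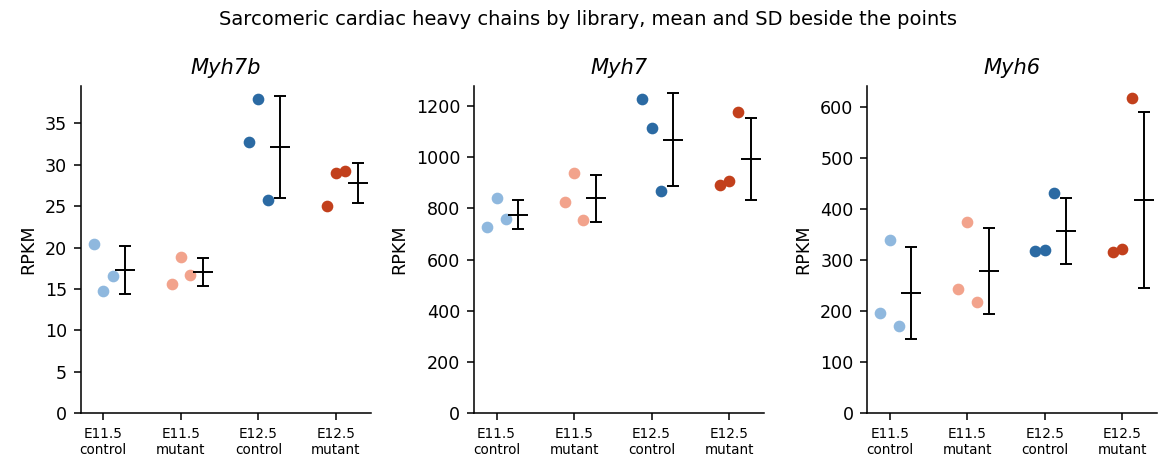
RPKM of Myh7b, Myh7 and Myh6 in each library of the 4 groups (points), with the mean and SD of 3 libraries beside them; all axes start at 0. The 6 E12.5 Myh7b points lie at 25.1 to 37.98 RPKM, above all E11.5 points, while the genotypes of a stage overlap for all 3 genes.

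Shares within a library do not depend on how libraries are scaled. The share of Myh6 in the RPKM of Myh6 and Myh7 was 18.5%, 21.3% and 28.7% in E11.5 controls and 22.5%, 22.7% and 28.5% in E11.5 mutants. At E12.5 it was 20.6%, 22.3% and 33.3% in controls and 26.1%, 26.3% and 34.4% in mutants. Ranges overlapped in both comparisons. The difference was 1.77 percentage points at E11.5 (exact two-sided permutation p = 0.6) and 3.53 points at E12.5 (exact p = 0.5), in designs of 3 against 3 that cannot go below 0.1. Over both stages, with genotype permuted within stage, it was 2.65 points (exact p = 0.38), and with stage permuted within genotype it was 3.47 points (exact p = 0.25). The E12.5 difference was 0.782 points without E12.5 mutant 3 and 7.45 points without E12.5 control 3. The E11.5 difference turned to -0.20 points without E11.5 mutant 2 and to -0.41 points without E11.5 control 3. Myh7 was 2.37 to 3.29 times the level of Myh6 by group means. Among the non-muscle chains, Myh10 held 68.4 ± 1.81% (SD, n = 3) of the RPKM in the controls and 66.3 ± 2.32% in the mutants at E11.5. At E12.5 its share was 70.2 ± 3.08% and 68.5 ± 1.1%, in the same order. The genotype difference was -1.90 points over both stages (exact p = 0.17) and the stage difference 2.002 points (exact p = 0.135). After Benjamini-Hochberg adjustment over the 8 share comparisons every p was 0.6.

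Myh3 was the only member whose libraries did not overlap between genotypes at a stage, at a very low level. Its read counts were 14, 176 and 33 in E12.5 mutants 1, 2 and 3 and 6, 12 and 2 in E12.5 controls, or 0.937, 10.3 and 2.16 CPM against 0.396, 0.677 and 0.123 CPM. All 3 mutants were above all 3 controls, and E12.5 mutant 2 stood far above the others. Genes with reads under the filter did not overlap between the genotypes in 11.9% of cases at E12.5, and genes above it in 26.4% (16.3% at E11.5). At E11.5 the counts were 4, 6 and 8 in mutants and 4, 2 and 0 in controls, higher in mutants in 8 of 9 pairs of libraries.

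With no filter on low values, Myh3 was called upregulated in E12.5 mutants, with a log2 fold change of 3.47 and a 95% interval of 1.97 to 4.97 (SE 0.712, edgeR adjusted p = 0.00742), in a test that called 2.94% of genes. Over both stages it was 2.96 (SE 0.664, edgeR adjusted p = 0.0137), where 2.63% of genes were called. At E11.5 alone it was not called (1.63, SE 0.931, adjusted p = 0.698), and the difference between the stages was not shown (interaction 1.84, SE 1.52, adjusted p = 1). Without E12.5 mutant 2 the value at E12.5 was 1.93 (adjusted p = 0.0909) and over both stages 1.81 (adjusted p = 0.0783), so that both calls rested on that library. The direction was the same without each other library at E12.5, at 3.05 to 4.12, and in DESeq2 (3.49, adjusted p = 0.0379). Between the stages, Myh3 libraries of mutants did not overlap, as for 9.49% of the genes under the filter, and over both genotypes the log2 fold change was 2.87 (SE 0.668, edgeR adjusted p = 0.0143), in a test that called 3.16% of genes. This call was also lost without E12.5 mutant 2 (1.73, adjusted p = 0.0653).

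The same library was also highest for a pair of skeletal muscle regulators. Myog, a myogenic transcription factor, had 12, 39 and 20 reads in E12.5 mutants 1, 2 and 3 and 10, 12 and 9 in controls. Myod1, which specifies skeletal muscle, had 4, 17 and 9 reads in those mutants, 1, 4 and 0 in controls and at most 1 in any E11.5 library. These genes were singled out after their values were seen. The other markers of the list were mixed. Myf5 had 0, 0 and 3 reads in E12.5 mutants 1, 2 and 3, Myf6 had 2, 1 and 2, and Pax7 had 0, 3 and 1. Tnnc2 had 5, 23 and 12 reads in those mutants and 1, 18 and 2 in controls. For Chrna1 the counts were 3, 9 and 10 against 4, 1 and 0. Actn3, Atp2a1 and Mybpc1 were not highest in E12.5 mutant 2. Over the whole list of 10 skeletal muscle markers the summed level was 23.0 to 39.7 CPM in E12.5 mutants and 23.2 to 30.7 CPM in controls, and it was 18.2 to 22.8 CPM in E11.5 mutants and 28.2 to 38.5 CPM in E11.5 controls. The highest sum was that of E12.5 mutant 3, and E12.5 mutant 2 was at 31.1 CPM. None of the 5 list genes tested at E12.5 was called by edgeR, and 1 had an unadjusted p under 0.05. Myf5 had no read in E12.5 controls, and Myod1, Myf5 and Pax7 had none in E11.5 controls. Myh8, the perinatal skeletal heavy chain, did not go with Myh3. It had 12, 23 and 17 reads in E12.5 mutants and 11, 25 and 23 in controls. The part of skeletal muscle RNA in the Myh3 result was not tested.

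**Figure D4:**
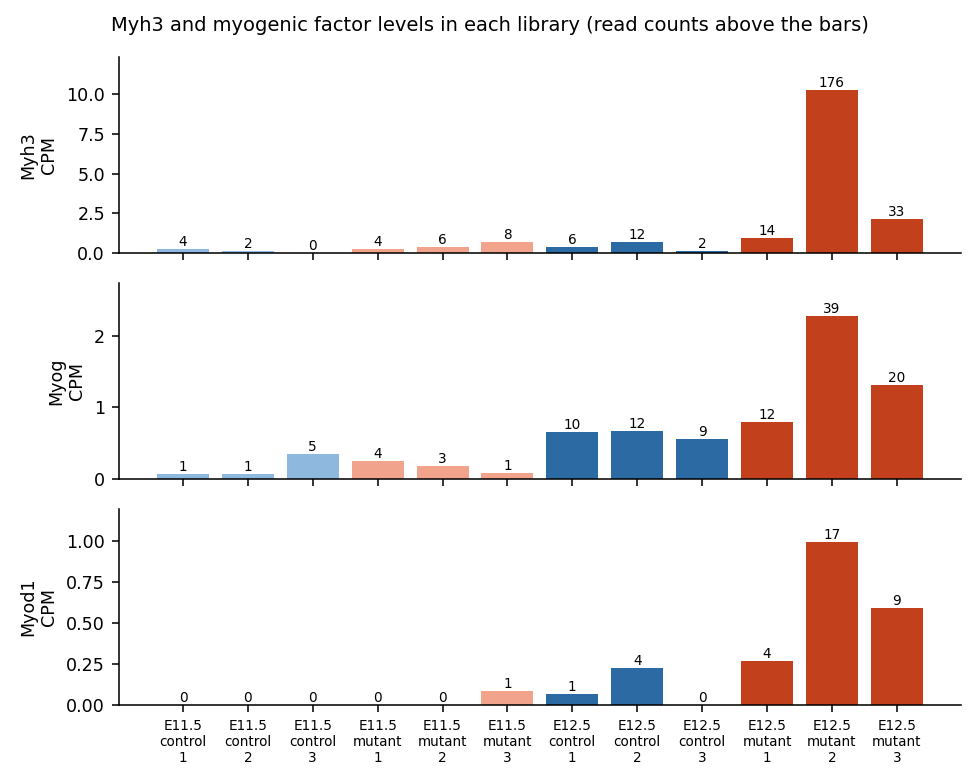
Level in CPM (bars) and read count (numbers above the bars) of Myh3, Myog and Myod1 in each of the 12 libraries, coloured by group. All 3 genes have their highest bar in E12.5 mutant 2, with 176, 39 and 17 reads, followed by E12.5 mutant 3 with 33, 20 and 9.

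The other low members were not called between genotypes. Myh11, the marker of differentiated smooth muscle, had 24, 28 and 52 reads in E12.5 mutants and 13, 38 and 58 in controls, and 10, 13 and 25 in E11.5 mutants against 21, 28 and 45 in controls. With no filter its log2 fold change was 0.02 (SE 0.418) at E12.5 and -0.92 (SE 0.463, edgeR adjusted p = 0.613) at E11.5. Its mutant libraries did not overlap between stages, as for 9.49% of the genes under the filter in mutants. The log2 fold change with stage was 0.998 there (SE 0.452, edgeR adjusted p = 0.602). Myh14, the IIC chain, had 9, 15 and 15 reads in E12.5 controls and 16, 22 and 72 in E11.5 controls. These groups did not overlap, as for 11.0% of the genes under the filter in controls. The log2 fold change with stage was -1.60 (SE 0.503, edgeR adjusted p = 0.0501), a miss of the threshold. The 72 reads were in E11.5 control 1, far above the 22 and 16 of the other E11.5 controls. In mutants Myh14 had 34 to 40 reads at E11.5 and 10, 20 and 55 at E12.5, and the stage value was -0.45 (SE 0.512, adjusted p = 0.788). Myh14 had a log2 fold change of 1.21 between the E12.5 genotypes (SE 0.515, edgeR adjusted p = 0.211), with mutants above controls in 6 of 9 pairs. It was 0.27 without E12.5 mutant 3, the library with 55 reads, and 1.65 without E12.5 mutant 2 (adjusted p = 0.0524).

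The other sarcomeric heavy chains were hardly expressed. Myh1, Myh2, Myh4, Myh8, Myh13 and Myh15 together came to 0.912 to 2.92 CPM in single libraries, none passed the filter, and Myh15 had no read in 3 of the 4 groups.

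Heavy chains assemble with light chains, and in this list 1 of 11 tested genes was called in E12.5 mutants. Over all genes tested, 3.03% were called in that comparison. Myl6b, a light chain of slow and non-muscle myosin, was upregulated by 1.11 on the log2 scale (SE 0.208, edgeR adjusted p = 0.0137). Over both stages its value was 1.11 again (SE 0.163, adjusted p = 0.0016), and at E11.5 alone it was 1.12 (SE 0.26, adjusted p = 0.157). The median of the list was 0.18 at E12.5. Myl2, Myl4 and Myl7, the ventricular and atrial light chains, had log2 fold changes of 0.10, 0.28 and 0.50 with adjusted p of 0.444, 0.133 and 0.17. With stage, 2 of 11 fell in controls, where 5.31% of all genes tested were called. Mylpf, a fast skeletal regulatory light chain, fell by 1.35 on the log2 scale (SE 0.266, adjusted p = 0.0216). Myl6, the smooth and non-muscle essential light chain, fell by 0.63 (SE 0.139, adjusted p = 0.0277). None was called with stage in mutants, where 1 of 11 had an unadjusted p under 0.05.

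Of the folding factors and thick filament partners, 1 of 15 tested was called in E12.5 mutants, where 3.03% of all genes tested were. Myom2, an M-band protein of the sarcomere, was upregulated by 1.19 on the log2 scale (SE 0.222, edgeR adjusted p = 0.0139), and the list's median was -0.02. It was under the filter at E11.5 and in the stage comparison of controls. Over both genotypes, Myom2 rose with stage by 2.37 on the log2 scale (SE 0.203, adjusted p = 4.02e-05). Mybpc2, the fast skeletal myosin binding protein C, rose by 1.25 (SE 0.283, adjusted p = 0.0156). In that fit 3.74% of all genes tested were called. Unc45b, a chaperone of the myosin head, and Smyd1, a muscle methyltransferase, were at -0.13 and -0.08 in E12.5 mutants, with adjusted p of 0.49 and 0.666.

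No kinase, phosphatase or partner of myosin II, of 12 tested, was called by edgeR between genotypes or stages, while 1 to 7 had an unadjusted p under 0.05 in a comparison. Between the genotypes at E12.5 this was 6 of the 12, where 2613 of all 12256 genes tested had such a p, and the list's median was -0.24. The 13 tested regulators of the cardiac heavy chain genes, among them Gata4, Mef2c, Tead1, Tbx5 and the thyroid hormone receptor Thra, also gave no call, with at most 3 at an unadjusted p under 0.05. Their median was -0.15 at E12.5. The medians of all genes tested were -0.008 at E11.5 and -0.0015 at E12.5.

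Because whole hearts mix chambers and cell types, 4 members were set against the mean log2(CPM + 0.5) of the markers of a matching tissue over the 12 libraries. Myh6 went with 7 atrial markers (Pearson r = 0.791, permutation p = 0.00172, adjusted over the 4 relations 0.00688; Spearman rho = 0.769, permutation p = 0.00505). The value was 0.757 with group means removed (adjusted permutation p = 0.0338), where rho was 0.483 (adjusted permutation p = 0.137), and 0.567 without the 2 libraries farthest from the median marker level. Against the summed CPM of the same markers, which is dominated by the most abundant genes, it was -0.19 (adjusted permutation p = 0.976), so that the relation depends on how the list is summarised. E12.5 control 3 and E12.5 mutant 3 had the most Myh6 of their groups. They also had the most Sln, an atrial calcium pump regulator, at 8.18 and 10.2 CPM. The other E12.5 libraries were at 1.45 to 5.35 CPM. Myl7, Myl4, Nr2f1 and Stard10 were also highest of their groups in these libraries. Nr2f2 was lowest of the E12.5 mutants in mutant 3, at 32.3 CPM against 36.1 and 41.1 CPM. Kcnj3 was higher in E12.5 control 1 (6.60 CPM) than in E12.5 control 3 (6.27 CPM).

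Myh7 and 4 ventricular markers showed no relation that passed the test (r = -0.33, permutation p = 0.3; rho = -0.33, permutation p = 0.297; r = -0.24 without the 2 farthest libraries). For Myh11 and 8 smooth muscle markers, r was 0.589 (permutation p = 0.0442, adjusted 0.0589; rho = 0.573, permutation p = 0.0565; r = 0.581 without the 2 farthest). Smooth muscle markers summed to 1742 to 3512 CPM, where Myh11 was at 0.608 to 3.57 CPM. Most of that sum was Acta2, at 1058 to 2389 CPM. Lmod1 was at 0.792 to 5.56 CPM and Actg2 at 4.01 to 14.7 CPM. Which cells the reads of these markers came from was not tested. For Myh3 and 10 skeletal muscle markers r was 0.778 (permutation p = 0.0106, adjusted 0.0213) while rho was 0.217 (permutation p = 0.499), and r was -0.17 without the 2 farthest libraries. The relation of Myh3 rests on E12.5 mutants 2 and 3.

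**Figure D5:**
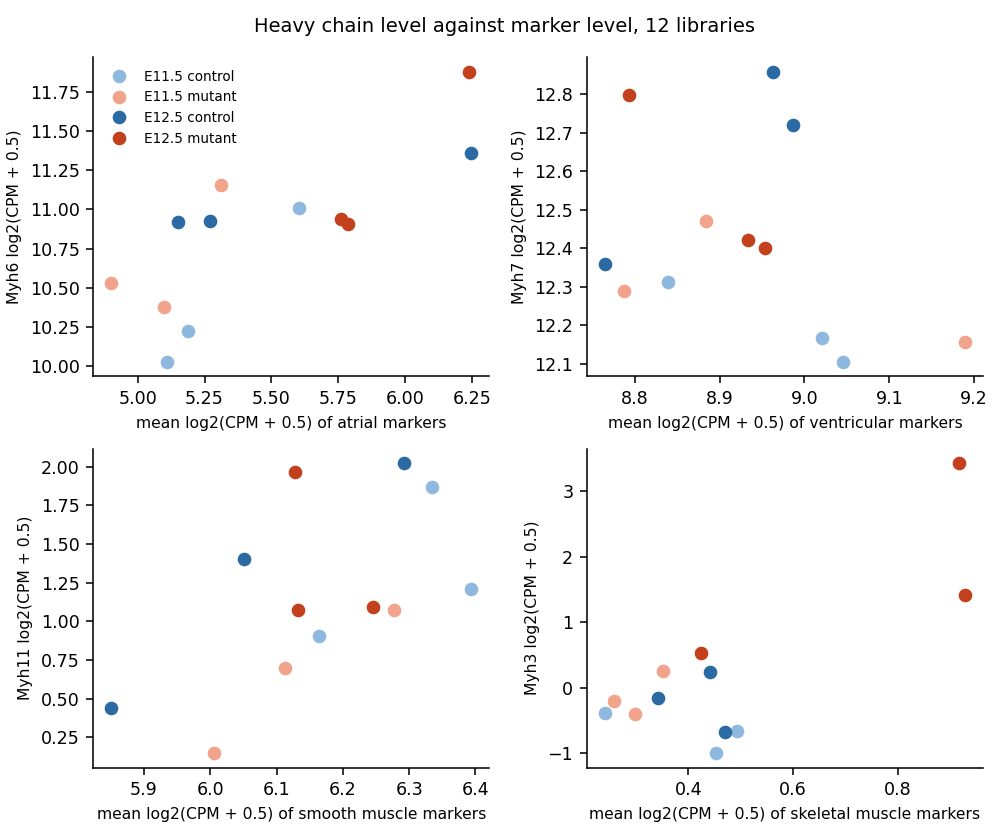
Level of 4 heavy chain genes as log2(CPM + 0.5) against the mean log2(CPM + 0.5) of matching marker genes, 1 point for each of 12 libraries, coloured by group. Myh6 increases with atrial markers (r = 0.791), and the Myh3 panel is set by 2 E12.5 mutant libraries in its upper right corner.

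Among themselves, the members with the closest levels over the 12 libraries were Myh9 and Myh10 (r = 0.82), Myh7 and Myh7b (0.777), Myh7 and Myh10 (0.756) and Myh6 and Myh7 (0.699), as a description of libraries that share stage and genotype. With group means removed these were 0.782, 0.411, 0.705 and 0.493. Of 11459 genes with at least 1 RPKM, the 3 most like each member over the 12 libraries, by Pearson r of log2(CPM + 0.5), were as follows. For Myh7 they were Fam160b1 (0.943), Ryr2 (0.936), the cardiac calcium release channel, and Pdcd11 (0.934). For Myh7b they were Usp20 (0.975), Coro6 (0.941) and Casq2 (0.94), the cardiac calsequestrin. For Myh6 they were Slc7a7 (0.93), Srebf2 (0.92) and Calcr (0.91). For Myh10 they were Phlpp2 (0.982), Rnf20 (0.97) and Syne2 (0.964), and for Myh9 Klf9 (0.973), Hivep1 (0.952) and Usp49 (0.951). The low members had Stom, Calb2 and Dact1 (Myh11, 0.862 to 0.918), Kdm1a, Shisa5 and Igfbp2 (Myh14, 0.873 to 0.897) and Col20a1, Pkn3 and B3gntl1 (Myh3, 0.781 to 0.855).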

How the data were processed

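Hearts were frozen during genotyping and RNA was extracted with a QIAGEN kit. Per the labels and the study's methods, the authors used Bowtie2, mm10 and DESeq, and reads were paired-end. The counting program, annotation and read length were not given in the sources used here. The deposited table is named RPKM, but its values are scores, each a whole count times a gene factor and a library factor. Counts were recovered from it with the group mean counts of the deposited comparison tables (expected counts, averaged by the authors): all 17827 genes with reads came out whole within 0.001, and 1597 of 19424 had none. The deposited p-value, z score and fold change columns of the authors' comparisons were not used. CPM and RPKM were computed from the recovered counts with TMM factors. Tests used edgeR 4.0.16 (glmQLFit, glmQLFTest) in R 4.3.3 on genes with a mean of at least 0.5 RPKM in a comparison, on the libraries compared and no covariate, with Benjamini-Hochberg adjustment. DESeq2 1.42.0 and limma 3.58.1 (log2(RPKM + 0.5)) were alternatives, with the others given in the closing section. Shares and single genes used exact permutation tests, and correlations 100000 resamples. On counts simulated with the same spread for every gene, and without genes of low count, the edgeR test recovered 200 of 200 genes changed 4-fold. These were among 12294 genes (mutants against controls at E12.5). This checks the code and not the power to find smaller changes in these libraries. Named genes were the 8 members, the called genes of the fixed lists (at most 4 each), genes a member's result turned on, and the 3 genes most like each member. Myl2, Myl4, Myl7, Unc45b, Smyd1, Sln, Myog, Myod1, Myf5, Myf6 and Myh8 were added after their values were seen. So were Nr2f1, Nr2f2, Stard10, Kcnj3, Pax7, Tnnc2, Chrna1, Actn3, Atp2a1 and Mybpc1. Genes, lists and tests were chosen with earlier results of these data known. Pairing by replicate number was not assumed. The correlation of deviations from the group means between same-numbered libraries was -0.121 to 0.426. It was highest between the E11.5 genotypes, at 0.426 and 0.293 for replicates 2 and 3, and whether these numbers mark pairs was not tested. Floors on counts cover counting error only. The intervals of the fold changes come from the standard errors of the fits, which include the spread between libraries.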

Additional observations from a re-analysis of the deposited data

How the results depend on the processing

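Each fit was repeated with no filter, a minimum of 5 RPKM, median-ratio size factors, DESeq2, limma at 3 pseudocounts, no fold threshold, the replicate number as a block, sex as a covariate, 1 fit of all libraries and each library left out. Of 555 planned member log2 fold changes recomputed, 500 kept their direction and their side of the thresholds, 41 reversed, 11 fell below and 3 passed a threshold; the cause was not tested. With no filter on low values, 1 member (Myh3) was called at E12.5 and 1 over both stages, as with DESeq2 (1 and 1) and with sex as a covariate (1 and 1), and the count was 0 to 1 without single libraries. The settings that join no filter with another change, and the test of stage over both genotypes, were chosen after seeing the data. With stage, the number of members called in controls was 1, 2 with no fold threshold, 0 with sex as a covariate and 0 to 2 without single libraries. In mutants it was 1, and 0 at a minimum of 5 RPKM, 0 with the replicate block and 0 to 1 without single libraries. Over both genotypes it was 1, 2 with no filter (also with DESeq2 or with sex as a covariate), 2 with no fold threshold and 1 to 2 without single libraries. The replicate block changed no other call of a member, and whether the replicate numbers pair the libraries is not known.

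No reversed fold change had been called. With sex as a covariate, the mutant log2 fold change at E11.5 was -0.11 for Myh6 and -0.0418 for Myh7, and over both stages -0.0931 for Myh7. The stage difference of the mutant effect was then 0.10 for Myh6, 0.0794 for Myh9 and 0.23 for Myh10, and 0.00018 for Myh10 in limma at a pseudocount of 0.1. Without single libraries, the mutant log2 fold change at E11.5 ran from -0.12 to 0.13 for Myh7b, -0.17 to 0.12 for Myh9, -0.0291 to 0.60 for Myh6 and -0.27 to 0.0522 for Myh10. At E12.5 it ran from -0.24 to 0.0147 for Myh7, -0.0992 to 0.0267 for Myh9 and -0.15 to 0.40 for Myh6. Over both stages it ran from -0.0484 to 0.0671 for Myh7 and -0.11 to 0.0306 for Myh9, and with stage in mutants from -0.00537 to 0.28 for Myh9. The stage difference ran from -0.40 to 0.26 for Myh6, -0.18 to 0.12 for Myh9 and -0.22 to 0.12 for Myh10. The Myh6 share difference at E11.5 ran from -0.41 to 4.72 points and the Myh10 share difference at E12.5 from -2.71 to 0.11 points. Against summed marker levels, r was -0.19 for Myh6, -0.00991 for Myh11 and 0.12 for Myh3, and with group means removed it was 0.527 for Myh3. Depth limits Myh3, Myh11 and Myh14, with 0 to 176 reads a library.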
